A study of Mus musculus with 148 samples.

Results

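The genes S100a4, S100a6, S100a8, S100a9, S100a10 and S100a11 were followed across the immune cells of a mouse model of breast cancer lung metastasis. They were listed by name, as 6 of the 18 S100 rows among the 52634 gene rows of the deposited tables. Immune cells of C57BL/6 female PA-GFP mice, which carry a photoactivatable GFP, were sorted singly into multi-well plates after removal of CD31+ cells and profiled as UMI counts (unique molecular identifiers, so that amplified copies of 1 molecule count once). All tumor-bearing mice had received EO771-tdTomato breast cancer cells in a mammary gland at 8 weeks of age, with the tumor resected after 3 weeks in mice followed for metastasis. The groups were Normal lungs (3 mice), Pre-MET lungs taken while a primary tumor was present (3), Relapse-free lungs (6), Distal normal tissue of lungs with a metastasis (14), whole MET sections (13), photoactivated MET Core (13) and MET Invasive margin (7), and the Primary tumor itself (4), 63 samples of 27 mice in all. CD45+ cells were sorted except in the Core and Invasive margin samples, where GFP+ cells of the illuminated region were taken. EO771 is a single cell line, and the tissue classes rest on visible lesions and tdTomato signal, so a lung called free of metastasis may still hold tumor cells.

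S100 proteins are small calcium-binding proteins with EF-hand motifs that mostly act as dimers. S100A8 and S100A9 form the heterodimer calprotectin, the most abundant cytosolic protein complex of neutrophils, which binds zinc and manganese and signals through the receptors TLR4 and RAGE once released. S100A4 binds non-muscle myosin IIA and is known from motile cells, S100A6 (calcyclin) binds the protein encoded by Cacybp, S100A10 forms a tetramer with annexin A2 at the plasma membrane, and S100A11 binds annexins during membrane repair. In the lung before and during metastasis, S100A8 and S100A9 are best known as products of recruited myeloid cells.

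All 6 genes lie on chromosome 3 of mm10 and have 3 exons. S100a4 lies at chr3:90603771-90606045, S100a6 at chr3:90612882-90624181 and S100a8 at chr3:90668978-90670035, all on the plus strand. S100a9 lies beside S100a8 at chr3:90692632-90695721 on the minus strand. S100a11 (chr3:93520488-93526287) and S100a10 (chr3:93555080-93564643), both on the plus strand, form a separate pair further along the chromosome. The promoters of S100a8 and S100a9 are shown because these genes had nearly the same pattern across cells. They are the 250 bases before each RefSeq start site of GRCm38.p6, at chr3:90668821-90669070 on the plus strand and chr3:90695722-90695971 on the minus strand. Capitals mark matches on either strand to TATAAA, to TTNCNNAA, a reduced form of the site read by C/EBP factors, and to GAGGAA, the core read by PU.1.
S100a8: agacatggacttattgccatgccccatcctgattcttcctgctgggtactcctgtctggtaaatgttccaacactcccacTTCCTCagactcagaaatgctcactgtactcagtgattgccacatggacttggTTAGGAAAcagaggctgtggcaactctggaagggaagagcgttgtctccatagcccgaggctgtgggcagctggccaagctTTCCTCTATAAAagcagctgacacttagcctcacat
S100a9: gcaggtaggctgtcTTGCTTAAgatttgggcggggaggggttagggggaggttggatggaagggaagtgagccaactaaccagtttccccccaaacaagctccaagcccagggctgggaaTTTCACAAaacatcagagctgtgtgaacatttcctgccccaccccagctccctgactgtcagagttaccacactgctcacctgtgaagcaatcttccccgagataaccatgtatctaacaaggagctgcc
In S100a8, TATAAA began 30 bases before the start, directly after a GAGGAA match on the other strand that began 36 bases before it, a second GAGGAA match lay 170 bases before it, and TTNCNNAA lay 117 bases before it. In S100a9, TTNCNNAA matched 236 and 130 bases before the start, and TATAAA lay at the start site itself, outside the printed stretch. Among 32851 promoters of 300 bases each (250 before and 50 after the start), 13.6% held TATAAA, 40.7% held TTNCNNAA and 28.3% held GAGGAA on either strand. A TATAAA on the strand of the gene within the last 40 bases before the start, as in S100a8, was rarer, at 2.31%. S100a4 also held one there, 31 bases before its start, and GAGGAA on the other strand 19 bases after it, S100a11 held GAGGAA 153 bases before it, and S100a6 held none of the 3 motifs in this window.

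The authors labelled 24020 wells, of which 23425 were immune cells in 27 labels, with at least 500 UMIs each and a median of 1133. A sample held a median of 159 to 690 cells by tissue, and its median cell held 812 to 1201 UMIs in lung tissues and 3525 in Primary tumors. For every label, the UMIs of its cells in 1 sample were added up where there were 10 or more cells, which gave 510 sums in 26 labels, and a level is the count of a gene per 1000000 UMIs of the sum (CPM). The markers of each lineage were led by that lineage: the 12 neutrophil markers summed to 29962 CPM in neutrophils and to 136 to 486 CPM in the other immune lineages. The labels came from clustering these cells on expression, so differences between labels below are a description without a test. The 9 plates of Normal lungs were the only plates of their sequencing batch, so batch and tissue cannot be told apart in comparisons with Normal.

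S100a8 and S100a9 were highest in the 5 neutrophil labels. The authors recognised neutrophils by S100a8, so its high level there is part of how the labels were made. S100a8 averaged 262800 ± 83601 CPM (SD, n = 4 sums) in Neut_Camp, the label named for a granule gene of immature neutrophils, which is 26.3% of all UMIs of these cells. The 4 sums held 325210, 324470, 253550 and 147980 CPM. S100a8 was 165020 ± 61794 CPM (SD, n = 24) in Neut_Lcn2, 114770 ± 29799 CPM (SD, n = 16) in Neut_Ifit3 and 64229 ± 25817 CPM (SD, n = 29) in Neut_Ptgs2. The label PMN-MDSC, named by the authors for myeloid-derived suppressor cells, stood apart with 11818 ± 6754 CPM (SD, n = 5) and sums from 1223 to 19657 CPM. S100a9 followed the same order, with 80813 ± 16094 CPM in Neut_Camp, 52822 ± 12091 CPM in Neut_Lcn2, 42040 ± 11143 CPM in Neut_Ifit3, 26268 ± 7816 CPM in Neut_Ptgs2 and 5139 ± 3617 CPM in PMN-MDSC. Below the neutrophil labels came a step of 10 times or more: the next labels were Mon_Fn1 with 1178 ± 1551 CPM of S100a8 (SD, n = 54) and T_CD8_Gzma with 465.6 ± 399.4 CPM of S100a9 (SD, n = 8). For each of these genes, 4 of the 25 neighbouring pairs in the order differed by more than the larger SD of the pair, all at the neutrophil end.

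Of all UMIs in immune cells, neutrophils held 95.8% of S100a8, 96.5% of S100a9, 35.9% of S100a11 and 20.6% of S100a6, but 0.603% of S100a4 and 0.657% of S100a10. The 6 genes together made up 15.9% of the UMIs of neutrophils and between 0.154% and 0.699% of those of any other immune lineage. With every cell thinned to 500 UMIs, S100a8 was present in 97.4% of neutrophils and S100a10 in 3.20%.

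S100a6 and S100a11 had their highest means in neutrophil labels and were shared by monocyte, macrophage and dendritic cell labels. S100a6 was highest in Neut_Lcn2, with 3040 ± 915 CPM (SD, n = 24), ahead of Neut_Camp at 2921, Neut_Ifit3 at 2363, cDC2 at 2174, Mon_Fn1 at 2156 and Mon_Thbs1 at 2123 CPM, none of which differed from its neighbour by more than the spread. It was lowest in Mac_Cd9, at 83.1 ± 61.8 CPM (SD, n = 11). Other macrophage labels held more: Mac_Isg20 and Mac_Cd81 had 1775 and 1573 CPM of S100a6, and 801 and 936 CPM of S100a11. S100a11 was highest in Neut_Lcn2, with 3807 ± 1077 CPM (SD, n = 24), and Neut_Ptgs2, the fourth label at 2600 ± 911 CPM, was separated from cDC2 at 1571 ± 1023 CPM by slightly more than the spread. This separation depends on the tissues pooled. In Primary tumors cDC2 averaged 3049 CPM (n = 4) and the 1 Neut_Ptgs2 sum held 714 CPM, while cDC2 averaged 810 to 1223 CPM in other tissues. The lowest levels of both genes included the T-cell labels T_CD4_Lef1 and T_CD8_Dapl1, which the authors describe as naive cells, with 232 and 161 CPM of S100a6 and 160 and 114 CPM of S100a11.

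S100a4 and S100a10 were low where S100a8 was high. S100a4 was highest in Mon_Fn1, with 2163 ± 791 CPM (SD, n = 54), followed by cDC2 at 1916 ± 844 CPM (SD, n = 16) and Mon_Thbs1 at 1890 ± 727 CPM (SD, n = 25), and no neighbouring pair of its order differed by more than the spread. With sums of 20 or more cells, or with cells of at least 1000 UMIs, cDC2 came first. Mon_Fn1 sums ranged from 499.2 to 4587 CPM and all held S100a4. Monocytes held 69.5% of the S100a4 UMIs of immune cells. The 5 neutrophil labels lay between 10.5 and 79.7 CPM and B cells at 39.6 CPM. Among T cells, T_CD4_S100a4, a label that carries the gene in its name, held 1057 CPM and T_CD4_Lef1 held 136 CPM. The highest means of S100a10 were in T-cell labels: regulatory T cells (T_Treg) held 2981 ± 1405 CPM (SD, n = 7), T_CD8_Gzma 2303 ± 922 CPM (SD, n = 8) and T_CD4_S100a4 2046 ± 1087 CPM (SD, n = 27), with none of these differing by more than the spread. Of the 7 T_Treg sums, 4 came from Primary tumors (mean 3407 CPM), and in MET Core the mean of 2166 CPM (n = 2) lay below T_CD4_S100a4 at 2699 CPM (n = 5) and Mon_Fn1 at 2277 CPM (n = 7). Every T_Treg sum, from 1628 to 5872 CPM, lay above every sum of the 4 neutrophil labels other than PMN-MDSC. Those neutrophil labels averaged 21 to 73.6 CPM, and PMN-MDSC 321 ± 514 CPM (SD, n = 5). The PMN-MDSC mean rests mostly on 1 Relapse-free sum of 1223 CPM, while its MET and MET Core sums held 0 to 257 CPM.

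**Figure D1:**
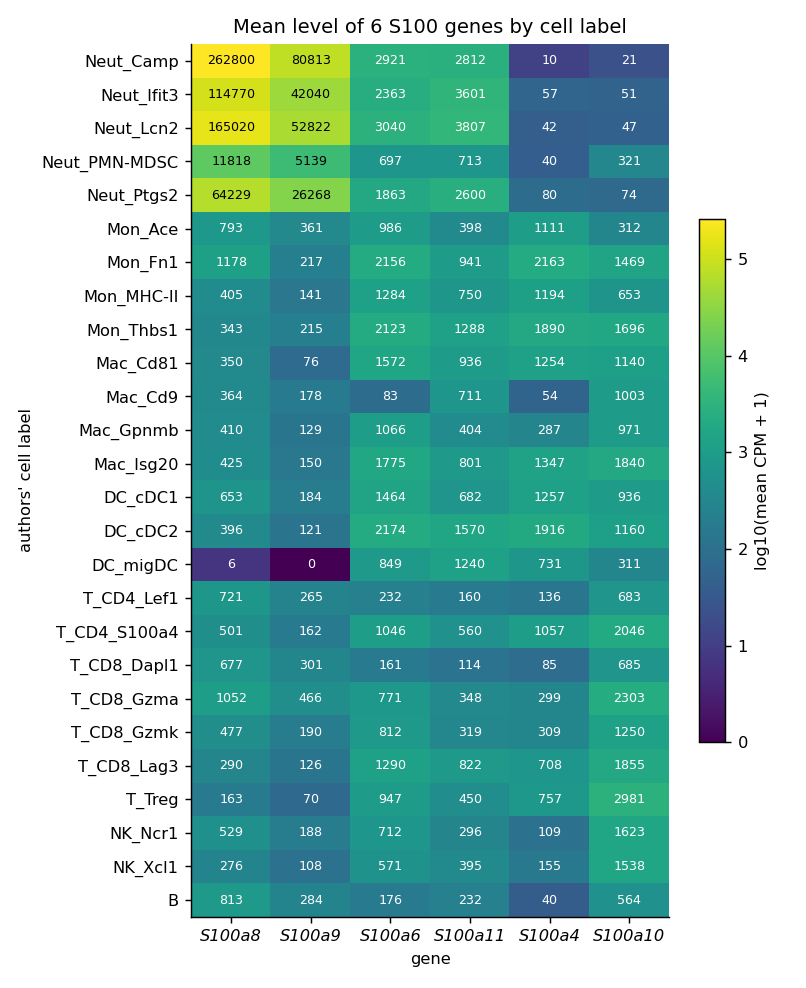
Mean level of each gene in CPM (number in the cell, colour on a log10 scale) for the 26 cell labels, averaged over sums of a mouse and tissue. S100a8 and S100a9 are high in the 5 neutrophil labels, where S100a4 and S100a10 are low. S100a6 and S100a11 are shared by neutrophil, monocyte, macrophage and dendritic cell labels.

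**Figure D2:**
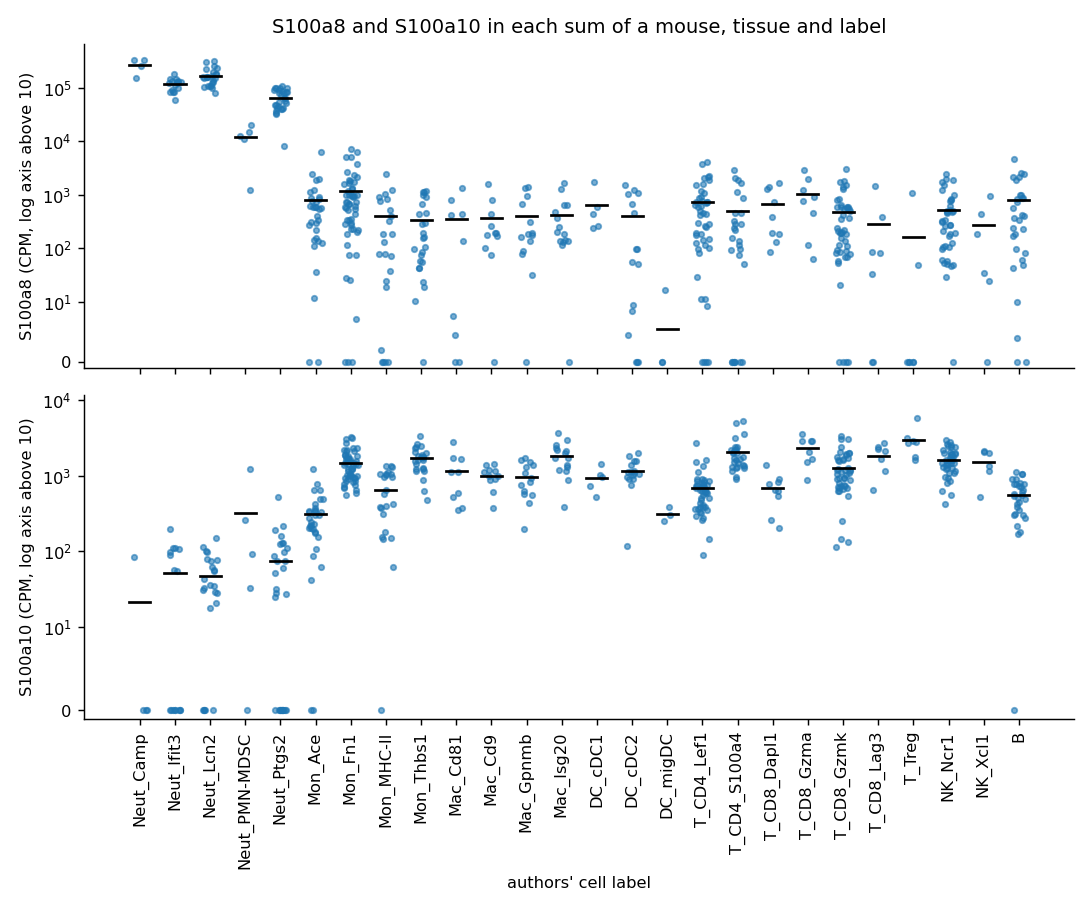
Each point is the CPM of S100a8 (top) or S100a10 (bottom) in 1 sum of a mouse, tissue and label, with the mean as a bar and a log axis above 10 CPM. The neutrophil labels hold 64229 to 262800 CPM of S100a8 on average apart from PMN-MDSC at 11818, and the T_Treg sums of S100a10 run from 1628 to 5872 CPM.

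Over the 26 labels, which share mice, plates and depth, the mean log2(CPM + 10) of S100a8 and S100a9 had a Pearson correlation of 0.994, and that of S100a8 and S100a10 of -0.811. S100a6 went with S100a11 (0.738), and S100a4 with S100a10 (0.619). Among 5564 other genes of at least 100 CPM in some label, the pattern of S100a8 was most like that of Retnlg (0.970), Lrg1 (0.963) and G0s2 (0.941), which were also the closest to S100a9. S100a4 was closest to Phf11a (0.863), Mcub (0.849) and Ms4a6c (0.846). S100a6 was closest to Tspo (0.893), Gm8865 (0.791) and Ifitm2 (0.787), and S100a10 to Hint1 (0.944), Tmem258 (0.935) and Gm13461 (0.932).

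The closest genes to S100a11 were its own copies. Gm7665 (0.981), Gm12854 (0.980) and Gm29240 (0.861) are processed pseudogenes that share stretches of 24 bases with the S100a11 transcript. Over 297 aligned bases, Gm12854 (chr4:116067268-116067564, plus strand, 1 exon) was identical to S100a11 at 294. The last 60 coding bases of S100a11 and the matching bases of Gm12854 are shown to make clear how few positions separate the rows, with the 3 mismatches in capitals.
S100a11: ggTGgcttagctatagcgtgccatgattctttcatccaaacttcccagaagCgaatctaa
Gm12854: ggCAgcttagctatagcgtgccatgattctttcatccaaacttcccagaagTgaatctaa
The S100a11 row held 53390 UMIs, and the 7 rows of its pseudogenes held 39139 UMIs, or 42.3% of the sum of both, of which 23353 were in Gm7665 and 14584 in Gm12854. This share was between 40.6% and 43.0% in every immune lineage, but the copies held 0.483 to 1.60 UMIs per S100a11 UMI between sequencing batches. The level of S100a11 is therefore uncertain as far as the authors' counting could divide reads between these rows, and its 2 called tests are also given with the rows together. The row Gm42674, which shares sequence with S100a4, held 13 UMIs, and Gm4714, which shares sequence with S100a10, held 10.

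UMIs of S100a8 and S100a9 also appeared in wells that held no neutrophil, and their number followed the plate. A lymphocyte (T, NK or B label) held 0.886 UMIs of S100a8 on average and a neutrophil 145, while the 592 wells left empty held 0.208 UMIs per well. Across the 146 plates with at least 5 lymphocytes, S100a8 per lymphocyte followed the S100a8 total of the plate (Spearman's rho 0.818), as S100a9 did (0.750) and the other neutrophil markers (0.729), and followed the total UMIs of the plate less closely (0.281). In the 37 plates with the least S100a8, of 36 to 567 UMIs, a lymphocyte held 0.0799 UMIs and an empty well 0.0135. In the 37 plates with the most, of 5835 to 58019 UMIs, a lymphocyte held 2.38 UMIs and an empty well 0.554. These plates share mice and batches, so the correlations are given without a test. On the 20 plates without a labelled neutrophil, a lymphocyte still held 0.199 UMIs, and these plates carried 36 to 2304 UMIs of S100a8, counting unlabelled wells. A lymphocyte held between 1.23% and 15.1% of the mean S100a8 of a well on its plates, by sequencing batch. The ratio of S100a8 to S100a9 UMIs was 2.78 in neutrophils, 2.66 in lymphocytes, 2.69 in unlabelled wells and 3.32 in empty wells. At 500 UMIs per cell, the share of cells with S100a8 was 21.9% in T cells (95% Wilson interval 20.9 to 22.8), 22.9% in NK cells (21.3 to 24.6) and 19.2% in B cells (17.0 to 21.7), at median depths of 997 to 1002 UMIs before thinning. Before thinning it was 34.0%, 37.3% and 28.0%, and intervals cover counting error only. Monocytes as a lineage, with a median depth of 1452 UMIs, stood at 23.1% (22.1 to 24.2), close to the shares in lymphocytes, and their S100a9 share of 8.61% lay below the 9.86% of T cells.

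Mon_Fn1, a monocyte label named for fibronectin, had the highest mean S100a8 among the immune labels other than neutrophils, within the spread of T_CD8_Gzma at 1052 ± 977 CPM (SD, n = 8). By tissue, T_CD8_Gzma was above Mon_Fn1 in Normal (426 CPM, n = 3, and 179 CPM, n = 3). The same held in Relapse-free (2060, n = 2, and 1542, n = 6) and MET Core (902, n = 1, and 727, n = 7). T_CD8_Gzma was below Mon_Fn1 in Distal normal tissue (116 CPM, n = 1, and 1528 CPM, n = 13) and MET Invasive margin (1997, n = 1, and 2021, n = 5). These means were not matched by mouse, and 1 sum cannot order the labels within a tissue. On 94 plates with at least 10 Mon_Fn1 cells and 10 lymphocytes, a Mon_Fn1 cell held more S100a8 than a lymphocyte on 83 plates (medians over plates 1.21 and 0.399 UMIs) and more S100a9 on 68 (0.239 and 0.150). Mon_Fn1 cells also held more UMIs in all (median 1503), and by CPM they were above lymphocytes on 57 plates for S100a8 and on 36 for S100a9. Their S100a8 was nevertheless tied to the plate, with 0.202 UMIs per cell on the 37 plates with the least S100a8 and 7.04 on the 37 with the most. Pooled over all mice, their ratio of S100a8 to S100a9 was 5.10 (95% counting interval 4.86 to 5.34). The pooled ratio was 2.22 to 3.32 in every other monocyte, macrophage, dendritic cell, NK, T or B label. In the 19 samples with at least 20 S100a9 UMIs in both Mon_Fn1 and neutrophils, the ratio was higher in Mon_Fn1 in 15. Among these were 3 of 3 Pre-MET lungs and 5 of 5 MET sections, but none of 3 Relapse-free lungs. The Mon_Fn1 ratio ran from 2.36 to 11.4 over the 19 samples and from 2.36 to 2.81 in the Relapse-free lungs. At 500 UMIs, 31.9% of Mon_Fn1 cells (30.3 to 33.6) held S100a8 and 10.6% S100a9, against 34.7% (30.0 to 39.6) and 14.9% of T_CD8_Gzma cells, whose median depth was 992 UMIs. The 12 neutrophil markers summed to 447 CPM in Mon_Fn1, with none at 0, and to 495 and 461 CPM in Mon_Ace and Mon_Thbs1, whose S100a8 levels over pooled cells were 610 and 255 CPM against 1443 CPM in Mon_Fn1.

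**Figure D3:**
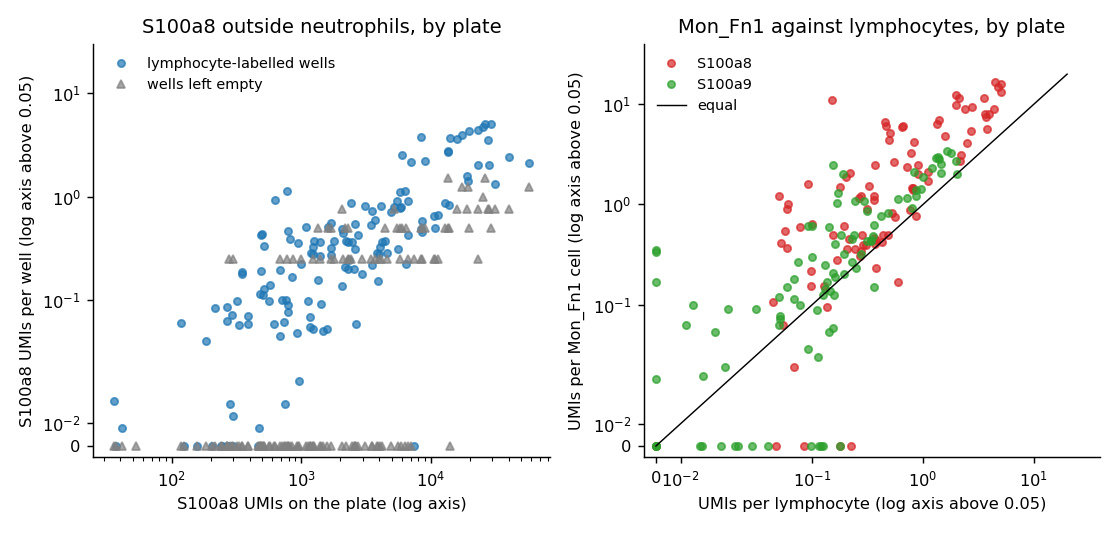
Left, S100a8 UMIs per lymphocyte-labelled well (circles) and per empty well (triangles) against the S100a8 total of each plate; right, UMIs per Mon_Fn1 cell against UMIs per lymphocyte of the same plate, with a line of equality. Lymphocytes hold 0.0799 UMIs on the 37 plates with the least S100a8 and 2.38 on the 37 with the most, and Mon_Fn1 lies above the line on 83 of 94 plates for S100a8.

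In all immune cells of a sample together, S100a8 and S100a9 followed the percentage of neutrophils (Spearman's rho 0.911 and 0.933 over 63 samples, some of the same mouse), a relation that the use of S100a8 to label neutrophils partly sets. S100a8 held 857 to 4238 CPM in Normal lungs, 5275 to 17982 in Pre-MET lungs, 860 to 22834 in Relapse-free lungs, 1204 to 112980 in Distal normal tissue, 106 to 73113 in MET sections, 95.5 to 24334 in MET Core, 177 to 116910 in MET Invasive margin and 47.6 to 545 in Primary tumors, where 1.79% to 3.22% of cells were neutrophils. The rho was 0.516 for S100a11, 0.316 for S100a6, 0.0513 for S100a4 and -0.113 for S100a10.

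Levels were compared between tissues within each label, with sums as replicates, by edgeR's quasi-likelihood test in 50 fits, and a gene was called at an adjusted p (Benjamini-Hochberg over all genes of the fit) below 0.05. Of 210 member tests, 7 were called, and the share of all tests called is given with each comparison below. Of these 7, 4 lay in the same fit, Mac_Cd81 of Primary tumors against MET Core. The p-values measure the spread between mice, which is the level of the sums. These fits did not pair tissues of the same mouse, although MET and Distal normal tissue, and margin and core, shared mice. Mouse as a block was an alternative setting.

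The comparison of Pre-MET with Normal lungs asks what changes in the lung while the primary tumor grows. Of 34 member tests in 8 labels, 1 was called higher and 0 lower, against 0.184% of all tests higher and 0.0291% lower. The call was S100a8 in Mon_Fn1. Normal sums held 73.8, 188 and 274 CPM, and Pre-MET sums held 991, 743 and 1798 CPM. The groups did not overlap, and the share of all genes without overlap is not given. S100a8 was higher by 2.76 on the log2 scale (SE 0.43, adjusted p = 0.00935). In this label 0.306% of all genes were called higher. The lymphocytes of the same mice held 91.3, 189 and 331 CPM in Normal and 473, 762 and 653 CPM in Pre-MET lungs, and the lymphocyte labels differed by 0.99 to 1.71 with no call by edgeR, while DESeq2 called S100a8 in T_CD4_Lef1 (1.72, adjusted p = 0.0151). With the lymphocyte UMIs of the same lung taken off, the difference was 3.97 (adjusted p = 0.00887). Before that step the Normal sums held only 4, 14 and 10 UMIs of S100a8, and the Pre-MET sums 326, 229 and 719. The larger difference therefore rests on very few UMIs left in Normal lungs. With the neutrophil share of the plates' UMIs as a covariate, the difference was 2.23 with an adjusted p of 0.660. Neutrophils made up 1.90% to 5.18% of cells in Normal and 5.97% to 16.2% in Pre-MET lungs. As these ranges do not overlap, this fit can hardly separate neutrophil share from tissue. Without mouse 8, 9 or 10 the adjusted p was 0.0546, 0.0510 and 0.0795. S100a9 in Mon_Fn1 differed by 1.89 (SE 0.76, adjusted p = 0.307).
In the same monocytes, S100a11 held 351, 215 and 247 CPM in Normal and 702, 688 and 623 CPM in Pre-MET lungs. The difference of 1.30 (SE 0.30) had an adjusted p of 0.0830, and with the pseudogene rows counted together it was 1.61 with an adjusted p of 0.00811. It was also called by DESeq2 (1.23, adjusted p = 0.0130) and by edgeR without a filter on low counts (1.65, adjusted p = 0.00288). Without Normal mouse 1, S100a11 was called also without those rows (1.67, adjusted p = 0.0357), beside S100a8. S100a4 in Mon_Fn1 was 2991, 1787 and 3784 CPM in Normal and 2703, 2595 and 2331 CPM in Pre-MET lungs, with overlapping groups. The other markers called in these monocytes were Vcan, a matrix proteoglycan of monocytes, which was higher by 3.14 (SE 0.58, adjusted p = 0.0313), and Apoe, an apolipoprotein of macrophages, which was lower (-3.36, SE 0.22, adjusted p = 1.94e-06). Vcan was the only call among 9 monocyte markers tested, whose median difference was -0.26, and Csf1r differed by -0.59 (adjusted p = 0.347). Apoe was the only call among 3 macrophage markers tested, whose median difference was 0.45, and Chil3 differed by 1.40 (SE 0.31, adjusted p = 0.0666). Of the 12 neutrophil markers, 2 were high enough to test, Csf3r and G0s2, with 0 called and a median difference of 0.38.

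In neutrophils themselves, S100a8 and S100a9 were not called in any comparison that could be tested. S100a8 in Neut_Ptgs2 differed from Normal by 0.23 in Pre-MET lungs (95% interval -0.17 to 0.63), by -0.29 in Relapse-free lungs (-0.89 to 0.30) and by -0.25 in Distal normal tissue (-0.82 to 0.32). Between MET and Distal normal tissue, the difference was -0.10 in Neut_Lcn2 (-0.81 to 0.60), -0.26 in Neut_Ifit3 (-1.01 to 0.49) and -0.39 in Neut_Ptgs2 (-0.90 to 0.11). These intervals leave room for differences of about 2-fold in some labels. Neutrophils of Primary tumors could not be tested, since 1 sum of 12 Neut_Ptgs2 cells (mouse 38) was all they gave. It held 8209 CPM of S100a8 and 6924 CPM of S100a9, below every other Neut_Ptgs2 sum, the lowest of which held 32642 and 16356 CPM. With all neutrophil labels pooled, mouse 38 was the lowest of the Primary tumors, at 7686 CPM of S100a8 in 13 cells. The Primary tumors of mice 8, 9 and 10 held 38920, 69927 and 40321 CPM in 8, 6 and 13 neutrophils.

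The comparison of Distal normal tissue with Normal lungs asks how lung tissue away from a metastasis differs from the lung of a mouse without a tumor. Of 39 member tests in 9 labels, 1 was called higher and 0 lower, against 1.73% of all tests higher and 1.75% lower. S100a11 in Mon_Fn1 held 351, 215 and 247 CPM in Normal lungs and 738 to 1717 CPM (median 979) in 13 Distal normal tissues. The groups did not overlap, and the share of all genes without overlap is not given. S100a11 was higher by 1.88 (SE 0.33, adjusted p = 0.000462), where 3.39% of all genes of the label were called higher. With the pseudogene rows counted together, Normal sums held 336 to 591 CPM and Distal sums 1224 to 3235 CPM, and the difference was 2.01 (adjusted p = 0.000168). S100a8 in Mon_Fn1 differed by 3.14 (SE 1.20) with an adjusted p of 0.142 by edgeR and was called by DESeq2 (3.04, adjusted p = 0.0163), and it ranged from 76.6 to 4974 CPM in Distal tissue, overlapping Normal. In the 4 T and NK labels tested it differed by 2.16 to 3.30 and in B cells by 1.63, with no call. DESeq2 also called S100a6 in Mon_Ace (1.33, adjusted p = 0.0308). Among other markers in these monocytes, Vcan (4.04, adjusted p = 0.000441), Fn1, a fibronectin (1.33, adjusted p = 0.0158) and F13a1, a coagulation factor subunit (1.08, adjusted p = 0.0438) were higher, 3 of 8 tested monocyte markers, and the macrophage gene Apoe was lower (-2.21, adjusted p = 0.0280). The median difference of the 8 monocyte markers was 0.75, and Csf1r among them differed by -0.80 (adjusted p = 0.195). The other macrophage marker tested, Chil3, differed by 2.06 (SE 0.69, adjusted p = 0.0842). Of the 12 neutrophil markers only Lcn2 was high enough to test in these monocytes, and it differed by 7.29 (SE 2.89, adjusted p = 0.156). Its part in the S100 differences was not tested.

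In Relapse-free against Normal lungs, 0 of 56 member tests in 11 labels were called, against 0.0191% of all tests higher and 0% lower. At an unadjusted p under 0.05 there were 19 higher and 0 lower by edgeR (33.9% of member tests, against 4.92% of all tests), and 0 were called by DESeq2. Of these 19, 14 were S100a8 and S100a9, whose differences ran from 1.13 to 3.04 in all labels but Neut_Ptgs2, lymphocytes included. S100a8 in Mon_Fn1 differed by 2.86 (SE 0.99, adjusted p = 0.570), and without Normal mouse 3 it was called (3.18, adjusted p = 0.000225). Without a filter on low counts, 6 tests were called higher, with differences of 2.34 to 3.06. They were S100a8 in Mon_Fn1, NK_Ncr1, T_CD4_Lef1 and T_CD8_Gzmk and S100a9 in Mon_Fn1 and T_CD4_Lef1. The share of all genes called without this filter is not given, so the 6 do not set members apart from other genes. With the filter, S100a8 differed in T_CD4_S100a4 by 2.59, in NK_Ncr1 by 2.47 and in T_CD8_Gzmk by 2.38. S100a8 per lymphocyte was 0.212 UMIs in Normal and 1.19 UMIs in Relapse-free lungs. S100a10 in Mon_MHC-II differed by 2.25 with an adjusted p of 0.291.

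In MET against Distal normal tissue, 0 of 36 member tests in 10 labels were called, against 0% of all tests higher and 0.0208% lower, with 0 higher and 2 lower at an unadjusted p under 0.05 (5.56% of member tests, against 2.66% of all tests) and 0 by DESeq2. The 2 were S100a8 and S100a9 in Mon_Ace monocytes at -2.20 (SE 0.86, adjusted p = 0.983) and -2.05 (SE 0.73). With mouse as a block, which kept 4 mice with both tissues, S100a8 in Mon_Ace was called at -2.12 (SE 0.47, adjusted p = 0.0139). Its Mon_Ace sums ran from 127 to 6303 CPM in Distal normal tissue and from 12 to 924 CPM in MET. S100a8 was lower in MET in all 8 labels tested and S100a9 in all 5. A lymphocyte held 0.964 UMIs of S100a8 in Distal normal tissue and 0.385 in MET. The part of this lymphocyte level in the Mon_Ace call was not tested. S100a4, S100a10 and S100a11 in Mon_Fn1 differed by -0.03 (SE 0.19), -0.02 (SE 0.19) and -0.06 (SE 0.17). In MET Invasive margin against MET Core, 0 of 17 member tests in 5 labels were called, 0% of all tests were called higher and 0% lower, and 0 members had an unadjusted p under 0.05 or a call by DESeq2. S100a8 differed by 1.02 to 2.32 in the 4 labels tested, each with an SE of 0.87 or more.

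**Figure D4:**
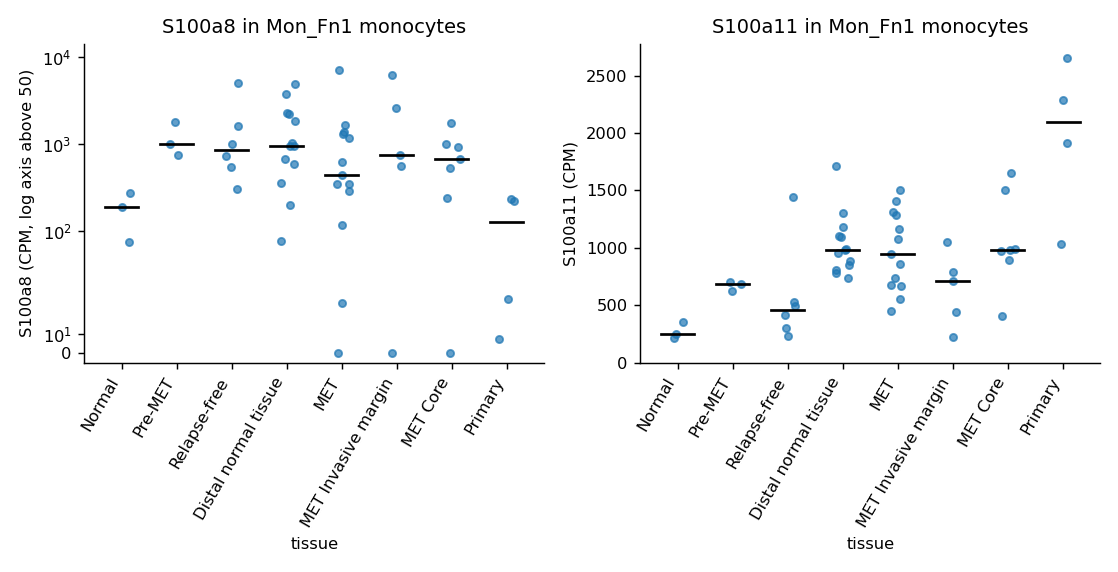
CPM of S100a8 (left, log axis above 50) and S100a11 (right, linear axis) in each Mon_Fn1 sum by tissue, with the median as a bar. S100a8 lies between 73.8 and 274 in Normal and between 743 and 1798 in Pre-MET lungs, and S100a11 between 215 and 351 in Normal lungs and between 738 and 1717 in Distal normal tissue.

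The comparison of Primary tumors with MET Core sets the immune cells of the tumor in the mammary gland beside those inside lung metastases. Of 28 member tests in 7 labels, 1 was called higher and 4 lower, against 1.55% of all tests higher and 0.806% lower. All 4 lower calls were in Mac_Cd81, tested in the Primary tumors of mice 8, 9, 10 and 38 and the cores of mice 24, 26 and 30. S100a4 held 2267, 2113 and 2690 CPM in the cores and 467, 258, 327 and 210 CPM in the Primary tumors. The groups were far apart, and the log2 difference was -2.62 (SE 0.38, adjusted p = 0.000114). S100a6 held 2154, 3117 and 3054 CPM in the cores and 995, 724, 689 and 652 CPM in the Primary tumors, a difference of -1.59 (SE 0.36, adjusted p = 0.00889). S100a10 held 1133, 2773 and 1672 CPM in the cores and 528, 589, 351 and 371 CPM in the Primary tumors, a difference of -1.81 (SE 0.39, adjusted p = 0.00699). None of these groups overlapped, and the share of all genes without overlap is not given. S100a11, at 907, 1162 and 509 CPM in the cores and at 1240, 714, 643 and 560 CPM in the Primary tumors, overlapped. It differed by 0.09 (95% interval -0.71 to 0.90), or by -0.13 with the pseudogene rows together. In this label 2.11% of all genes were called lower.
The fourth call was S100a8, at 793, 423 and 436 CPM in the cores and 0, 7.68, 4.46 and 0 CPM in the Primary tumors (-6.74, SE 0.92, adjusted p = 0.000114). The cores rest on 29 UMIs and the Primary tumors on 6, a ratio of pooled levels of 144 (95% counting interval 58.8 to 425). The lymphocytes of the same samples held 464, 504 and 481 CPM in the cores and 27.7, 5.70, 19.3 and 11.0 CPM in the Primary tumors, so S100a8 in Mac_Cd81 stood near the lymphocyte level in the cores and below it in 3 of 4 Primary tumors. After that level was taken off it no longer passed the filter on low counts. The cells labelled Mac_Cd81 also differed in depth and markers. Core sums held 8823 to 37861 UMIs and Primary sums 81435 to 672043. All 4 macrophage markers tested were called higher in Primary tumors: Apoe by 3.49 (SE 0.50), the complement genes C1qa by 2.63 (SE 0.38) and C1qb by 1.14 (SE 0.34), and the mannose receptor Mrc1 by 4.43 (SE 0.80). The part of depth and of these markers in the S100 differences was not tested. Without a filter on low counts, the adjusted p of S100a6 was 0.350 and that of S100a10 0.236, while S100a4 and S100a8 stayed called. Without the core of mouse 26, S100a6 differed by -0.98 (adjusted p = 0.173) and S100a10 by -0.83 (adjusted p = 0.276), and without that of mouse 30 S100a6 had an adjusted p of 0.0897. S100a4 and S100a8 stayed called without any 1 of the 7 mice. Mac_Cd81 could not be fitted with sums of 20 or more cells, with cells of at least 1000 UMIs or with the sequencing batch as a covariate, so no call in it was tested there.

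**Figure D5:**
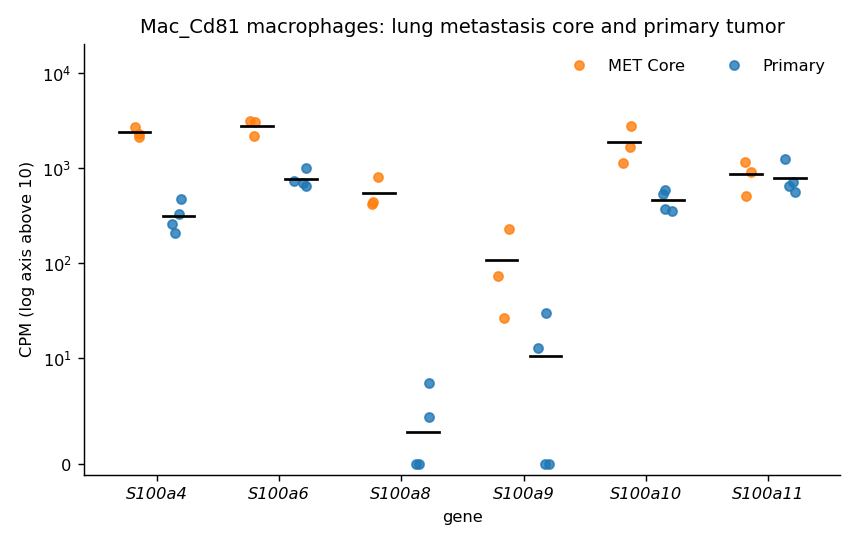
CPM of the 6 genes in Mac_Cd81 sums of MET Core (3 mice) and Primary tumors (4 mice), each point a sum and each bar a mean, with a log axis above 10. S100a4, S100a6, S100a8 and S100a10 do not overlap between the tissues, with S100a4 at 2113 to 2690 in the cores and 210 to 467 in Primary tumors, and S100a11 overlaps. The share of all genes without overlap is not given.

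The call in the other direction was S100a11 in cDC2, which held 803, 1785 and 581 CPM in the cores of mice 23, 28 and 30 and 3489, 3037, 3422 and 2247 CPM in Primary tumors. The groups did not overlap, and the share of all genes without overlap is not given. S100a11 was higher by 1.53 (SE 0.40, adjusted p = 0.0184), in a label where 1.11% of all genes were called higher. With the pseudogene rows together it was 1.40 (adjusted p = 0.0247). The call was lost without a filter on low counts (1.65, adjusted p = 0.298), without mouse 10 (adjusted p = 0.0745), without the core of mouse 23 (1.31, adjusted p = 0.398) and without that of mouse 30 (1.19, adjusted p = 0.247), and without that of mouse 28 the difference was 2.66. S100a11 differed upward in all 6 labels tested, by 0.09 to 1.53, except in Mac_Cd81 with the pseudogene rows together, with 3 at an unadjusted p under 0.05 (14.8% of all tests had one). It differed in Mon_Fn1 by 0.99 (SE 0.36, adjusted p = 0.241), and DESeq2 called it in Mon_Thbs1 (0.89, adjusted p = 0.0413). S100a8 differed downward in all 4 labels tested, and 3 of them, with -2.68 in Mon_Fn1, -3.41 in Mon_Thbs1 and -3.93 in T_CD8_Gzmk, were not called by edgeR. DESeq2 called these 3, with adjusted p-values of 0.0474, 0.00471 and 0.0372. S100a8 was also called by edgeR in T_CD4_Lef1 without mouse 8 (-5.87, adjusted p = 0.0290) and without mouse 28 (-6.19, adjusted p = 0.00716), in Mon_Thbs1 without mouse 28 (adjusted p = 0.0423) and in Mon_Fn1 without mouse 23 (adjusted p = 0.0356). Primary plates held a median of 215 UMIs of S100a8 and core plates 509.5. The Primary samples of mice 9, 10 and 38 were in a sequencing batch with no core, so batch and tissue cannot be told apart for them.

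The genes around the 6 members gave no call by edgeR in any comparison. The partner list of 15 genes held the receptors Tlr4, Ager, Bsg and Cd36, the S100-binding genes Anxa1, Anxa2, Anxa6, Anxa11, Ahnak, Cacybp and Myh9, and subunits of the NADPH oxidase, Cybb and Cyba among them. It was called in 0 of 291 tests by edgeR and in 2 by DESeq2, with 21 at an unadjusted p under 0.05 by edgeR (9.05% of all tests of the 50 fits had one). The nearest to a call was Myh9, the myosin heavy chain bound by S100A4, in Mon_Thbs1 of Primary tumors against cores (1.48, SE 0.44, adjusted p = 0.0925), followed by Cd36 in Mon_Ace of Pre-MET lungs (-1.50, SE 0.36, adjusted p = 0.119), and these were the 2 calls of DESeq2 (adjusted p = 0.0281 and 0.0248). Anxa2, whose product pairs with S100A10, differed by 0.52 (SE 0.25, adjusted p = 0.220) in Mon_Fn1 of Distal normal tissue, and Anxa1 by 0.75 (SE 0.23, adjusted p = 0.172) in Mon_Fn1 of Pre-MET lungs. The 11 other S100 genes were called in 0 of 45 tests, with 6 at an unadjusted p under 0.05 by edgeR and 1 call by DESeq2, S100a13 in Mon_Ace of Pre-MET lungs (1.52, adjusted p = 0.0248). Only S100a1, at most 761 CPM in Mac_Cd9, and S100a13, at most 627 CPM in T_CD8_Gzma, were high enough to test. The other 9 did not exceed 71.7 CPM in any label, the level of S100a16 in migratory dendritic cells.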

How the data were processed

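Sorted cells were profiled by SPID-seq, a 3′ method in which the wells of a plate are pooled before fragmentation. The authors deposited raw UMI counts of 52634 gene rows for each well of 148 plates, made by mapping reads to mm10 with HISAT, leaving out reads with multiple mapping positions and collapsing reads in exons to UMIs. The submitters' processing notes name bcl2fastq 2.15.0.4, and doublets were excluded by the authors at the sort. Cells under 500 UMIs carry no label. No well identifier was shared between plates.

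Counts were summed per mouse, tissue and label (10 or more cells) with Python 3.11.15 and numpy 2.4.6, and tested with edgeR 4.0.16 under R 4.3.3 (TMM, filterByExpr, robust quasi-likelihood F test, two-sided, Benjamini-Hochberg over all genes of a fit, at least 3 sums per group), after a check on simulated counts. DESeq2 1.42.0 was an alternative. The members, the gene lists and the rule for likeness (the 3 highest Pearson correlations of mean log2(CPM + 10) over labels) were chosen with earlier results of these data known. The genes named were the members, these likenesses and called or near genes of the lists. One gene of the partner list is not reported here and was left out of its counts. Wells left empty and unlabelled wells entered only descriptions and the total UMIs behind the neutrophil share of the plates. A label's neighbours in an order were compared with the larger SD of the pair.

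Tissues of 1 mouse were paired by the mouse number of the labels. After removal of the tissue means, the Mon_Fn1 sums of the same mouse correlated with a median r of 0.157 (12 pairs, -0.0190 to 0.577) for MET and Distal normal tissue and of 0.190 (3 pairs, -0.0311 to 0.347) for margin and core. Depth ranged from 48306 to 2745794 UMIs per sample. Intervals of shares, ratios and limits cover counting error only, and those of log2 differences come from the SE of the edgeR fit and cover the spread between sums.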

Additional observations from a re-analysis of the deposited data

Results flagged for a closer look

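In 3 of 18 groups of 4 to 10 sums that were examined, 1 sum lay far from the others by Dixon's criterion, which chance exceeds in about 1 of 20 groups. Among Relapse-free lungs, S100a11 in Mon_Fn1 was 1446 CPM in mouse 35 and 228 to 525 CPM in the other 5 mice. In the same tissue and label, S100a8 was 5084 CPM in mouse 29, a sum of 12 cells, and 304 to 1603 CPM in the others. S100a10 in T_Treg was 5872 CPM in the Primary tumor of mouse 8 and 1628 to 3212 CPM in the other 6 sums.

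Wells outside the immune labels also held S100a8. The 336 cells that the authors labelled Erythrocytes, which entered no comparison, held 69001 CPM in Distal normal tissue, 48411 CPM in MET Invasive margin, 25655 CPM in MET Core and 15354 CPM in Relapse-free lungs, against 299.3 CPM in Normal lungs, which gave 7 such cells. The 9 such cells of MET sections held 0 S100a8 UMIs of 7731, which allows up to 388 CPM (3 counts). Within these cells S100a8 took a median of 0.483% of UMIs, more than 5% in 99 cells and less than 1% in 187. The 12 neutrophil markers summed to 8154 CPM in them and to 29962 CPM in neutrophils, and the 3 erythrocyte markers to 39556 CPM. The ratio of S100a8 to S100a9 was 2.72 in them and 2.78 in neutrophils.

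The 32220 wells without a label held 20.7% of all S100a8 UMIs, nearly all in wells under 500 UMIs, where S100a8 stood at 23325 to 26255 CPM in each class of 100 UMIs. The 128 unlabelled wells of at least 500 UMIs held 376 S100a8 UMIs and 14 S100a9 UMIs. Of these, 309 S100a8 UMIs and 0 of S100a9 lay in 36 wells of the Primary tumor of mouse 10, at 589 CPM of S100a8.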

How the results depend on the processing

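No called difference reversed its direction under any alternative run, while S100a11 in Mac_Cd81, which was not called, turned from 0.09 to -0.13 in Primary against Core with its pseudogene rows counted, and in Pre-MET lungs Neut_Ptgs2 turned from -0.25 to 0.09 and NK_Ncr1 from -0.17 to 0.01. Under DESeq2, member tests called higher became 3 in Pre-MET against Normal, 3 in Distal normal tissue against Normal and 2 in Primary against Core, and those called lower in Primary against Core became 7. Without a filter on low counts, the calls were 2 higher in Pre-MET, 6 higher in Relapse-free, and 0 higher and 7 lower in Primary against Core. The share of all genes called under these settings and those below is not given. The counts therefore do not set members apart from other genes. The neutrophil share as a covariate left 0 higher in Pre-MET, where the neutrophil percentage of cells did not overlap with Normal. Leaving out 1 mouse at a time gave 0 to 2 higher calls in Pre-MET, 0 to 1 in Relapse-free, and 0 to 1 higher and 2 to 6 lower in Primary against Core, where leaving out core mice was added after seeing the data. In the last comparison, sums of 20 or more cells gave 0 higher and 1 lower, cells of at least 1000 UMIs 0 and 0, and the sequencing batch as a covariate 0 and 0. Mac_Cd81 and cDC2 were not among the labels fitted in these, and the 1 lower call was S100a8 in Mon_Thbs1 (-3.94, adjusted p = 0.0108). The replicate block by mouse gave 1 lower call in MET against Distal normal tissue. It could not be run in the comparisons that hold the 7 calls, whose groups share no mouse. In 2 further alternatives chosen after seeing the data, counting S100a11 with its pseudogene rows gave 2 higher calls in Pre-MET, and taking off the lymphocyte level left S100a8 in Mac_Cd81 untested. The cause of these shifts was not tested beyond the fewer sums or genes named. With the 6 S100 genes and the mitochondrial genes left out of the denominator, mean levels became 432780 CPM for S100a8 and 130970 CPM for S100a9 in Neut_Camp, and 4091 CPM for S100a6 and 5083 CPM for S100a11 in Neut_Lcn2; in cells of at least 1000 UMIs, S100a8 and S100a9 in Neut_Camp were 147550 and 58417 CPM, and no Neut_Camp sum held 20 cells. The leading label of S100a8 and S100a9 became Neut_Lcn2 with sums of 20 cells and with cells of at least 1000 UMIs, that of S100a10 T_CD8_Gzma with sums of 20 cells, and that of S100a6 Neut_Camp with the other denominator. Of the counts and levels followed under the alternatives, 32 moved and 156 stayed within 1.5 times or within the spread. The 156 include counts that were 0 under the main setting and stayed at 0. The sequencing batch could not be added in comparisons with Normal lungs, whose plates form a batch of their own.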
